A study of Rattus norvegicus with 18 samples.

Results

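The genes described here encode 10 receptors for neuropeptides, among them the oxytocin receptor, in the prefrontal cortex (PFC) of rat pups. The set was chosen with earlier results of these data known, and its members were then found by gene symbol. They were 10 of the 32623 genes listed for each pup: *Oxtr* (oxytocin), *Avpr1a* (vasopressin), *Npy1r*, *Npy2r* and *Npy5r* (neuropeptide Y), *Cckbr* (cholecystokinin), *Sstr1* and *Sstr2* (somatostatin), *Vipr1* (vasoactive intestinal peptide) and *Tacr1* (substance P). All 10 passed the filter on low counts that left 15703 genes for testing, and all had at least 7 counts in every pup.

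RNA was sequenced from 18 Sprague Dawley pups at postnatal day 14, 6 in each of 3 groups. In the saline group (SAL) the dams received vehicle by gavage. In the postnatal group (PNO) the dams received the opioid oxycodone (oxy) at 15 mg/kg/day from birth of the litter, which left the pups exposed through the milk. In the in utero group (IUO) dosing of the dams started at 10 mg/kg/day before mating, was raised in steps of 0.5 mg/kg/day to 15 mg/kg/day, and went on through pregnancy and nursing. IUO pups therefore shared the postnatal exposure of PNO pups and had the prenatal exposure in addition. Comparing PNO with SAL addresses exposure after birth, comparing IUO with SAL exposure over both periods, and comparing IUO with PNO the added prenatal period with its longer dosing of the dam. The labels used here do not give the dam or the sex of each pup, so the p-values measure the spread between these pups, some of which may be littermates.

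Neuropeptides are short peptides that are cut from larger precursors and released from neurons alongside fast transmitters. Their receptors span the membrane and act through G proteins: those for oxytocin, vasopressin, cholecystokinin and substance P mainly raise intracellular calcium, those for neuropeptide Y and somatostatin mainly dampen adenylyl cyclase and open potassium channels, and *Vipr1* mainly stimulates cyclase. In cortex, somatostatin, neuropeptide Y and vasoactive intestinal peptide come largely from local interneurons and cholecystokinin from both interneurons and pyramidal neurons, whereas oxytocin and vasopressin are made by hypothalamic neurons whose axons reach the forebrain.

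Totals per pup lay between 18381819 and 26084780 expected counts. All 8 markers of excitatory cortical neurons and all 7 of interneurons were detected, with summed levels of 656 to 1457 and 729 to 1103 TPM, a deposited unit that is scaled to gene length and sums to the same total in each pup. Between IUO and PNO, 3 of the 7 interneuron markers were higher and 4 lower, and *Pvalb*, of parvalbumin cells, was the 1 called, at 4.43 ± 1.26 CPM in IUO and 22.4 ± 8.69 in PNO (CPM are counts scaled to library size, SD, n = 6, log2 difference -2.34, edgeR adjusted p = 0.0356). No gene was called in that comparison without the 4 pups described next, where the difference of *Pvalb* was -2.30 (edgeR adjusted p = 0.193). Summed striatal markers ran from 124 to 1520 TPM over pups, with group medians of 215 in SAL, 214 in PNO and 534 in IUO. All 8 striatal genes were higher in IUO than in either other group, with median log2 differences of 0.54 from SAL and 0.86 from PNO, and none had an unadjusted p under 0.05. In the 14 pups left without those 4 the medians were 1.33 and 1.36, and *Drd1*, a dopamine receptor, and *Pde10a*, a phosphodiesterase, had an unadjusted p under 0.05 in both comparisons. That is 2 of 8 striatal genes in each, beside 5.12% of all genes against SAL and 14.0% against PNO. Choroid plexus markers ran from 7.24 to 2697 TPM and myelin markers from 1386 to 11077 TPM, with group medians for myelin of 4396 in SAL, 6605 in PNO and 2066 in IUO. All 7 myelin genes were lower in IUO than in PNO at an unadjusted p under 0.05, beside 15.3% of all genes, although none passed an adjusted p of 0.05. Without the 4 pups 5 of 7 were at an unadjusted p under 0.05, beside 14.0% of all genes.

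Signal from the hypothalamic peptides themselves set 4 libraries apart. *Oxt*, the oxytocin precursor, had expected counts of 491 in SAL replicate 1, 165 in PNO replicate 1, 187 in IUO replicate 3 and 970 in IUO replicate 6, against 0 to 8 in the other 14 pups. *Avp*, the vasopressin precursor, had 178 to 817 in those 4 pups and 4 to 45.9 in the others. *Sim1*, a transcription factor of the hypothalamic nuclei that make these peptides, had 18 to 95 counts against 0 to 3, and was added to the list after its values were seen. *Pmch*, a peptide of the lateral hypothalamus, reached 1436 counts in PNO replicate 1 and 386 in IUO replicate 6. It had 47.67 in SAL replicate 1 and 19.55 in IUO replicate 3, beside 0.74 to 31.58 in the other 14 pups. *Hcrt*, also on the list of hypothalamic genes, had 101 counts in PNO replicate 1. In SAL replicate 1 and IUO replicates 3 and 6 it had 7, 2 and 8, against 0 to 7 in the other 14 pups. *Pomc* and *Agrp*, of the arcuate nucleus, lay in the 4 pups at 37 to 62 and 6 to 10 counts, within the 20 to 166 and 2 to 24 of the others. Differences of the 10 receptors between groups are given below without these 4 pups as well where that moved them by over 1.5 times and by at least 0.1 on the log2 scale, or bore on a threshold.

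The sequences upstream of 4 receptors are shown because *Oxtr*, *Npy5r* and *Npy1r* had the 3 smallest p-values for IUO against SAL and *Npy2r* varied most over pups. Each is the 250 bases before the gene's start in RefSeq on rat assembly GRCr8, 5′ to 3′ on the gene's own strand. Capitals mark TGACG, part of the cyclic AMP response element, or CCAAT, each on either strand (read there as CGTCA or ATTGG).
Oxtr, chr4:147170500-147170749, minus strand: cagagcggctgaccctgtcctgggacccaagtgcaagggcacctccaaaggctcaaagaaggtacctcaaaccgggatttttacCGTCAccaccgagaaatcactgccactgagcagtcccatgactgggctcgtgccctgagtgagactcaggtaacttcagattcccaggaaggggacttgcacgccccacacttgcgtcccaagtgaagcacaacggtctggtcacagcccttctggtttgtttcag
Npy1r, chr16:27813388-27813637, minus strand: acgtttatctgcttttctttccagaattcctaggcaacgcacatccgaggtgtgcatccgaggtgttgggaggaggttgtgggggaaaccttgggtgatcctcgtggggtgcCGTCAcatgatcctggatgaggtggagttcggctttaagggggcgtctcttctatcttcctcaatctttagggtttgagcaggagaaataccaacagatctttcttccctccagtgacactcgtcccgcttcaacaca
Npy5r, chr16:27821805-27822054, plus strand: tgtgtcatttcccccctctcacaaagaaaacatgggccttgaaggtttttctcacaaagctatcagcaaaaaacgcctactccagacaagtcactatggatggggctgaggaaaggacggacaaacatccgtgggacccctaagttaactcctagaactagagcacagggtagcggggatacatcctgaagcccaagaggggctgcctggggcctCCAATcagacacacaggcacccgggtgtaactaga
Npy2r, chr2:170203101-170203350, minus strand: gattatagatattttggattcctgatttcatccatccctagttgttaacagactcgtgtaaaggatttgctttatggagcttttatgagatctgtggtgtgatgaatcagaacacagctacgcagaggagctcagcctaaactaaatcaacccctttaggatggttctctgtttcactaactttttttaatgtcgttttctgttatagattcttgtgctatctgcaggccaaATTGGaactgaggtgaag

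TGACG starts 166 bases before the start of *Oxtr* and 138 before that of *Npy1r*, and CCAAT 35 bases before that of *Npy5r* and 18 before that of *Npy2r*. Over all 10 receptors, 7 windows held TGACG and 5 held CCAAT, against 18.2% and 34% of the 33469 promoters in the table. TATAAA was found in 2 of 10 windows and 12.9% of all, and GGGCGG in 3 of 10 and 30.5% of all, both strands searched. These matches are letters in a window, not tested sites, and the shares were not compared by a test. *Npy1r* and *Npy5r* are neighbours whose starts lie 8668 bases apart on opposite strands, pointing away from each other. The *Oxtr* window ends in a run of pyrimidines and cag, letters that also stand before internal exons, and whether that start is where transcription begins in PFC was not tested. GC content was lowest at *Npy2r*, with 38.8%, and highest at *Vipr1*, with 72%, beside a median of 51.2% over all promoters.

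The level of a gene per length was read from TPM, which allows genes to be set beside each other. *Sstr1* was highest, with 34.9 ± 8.05 TPM (SD, n = 18), followed by *Cckbr* with 24.1 ± 6.38 TPM. *Sstr1* exceeded *Cckbr* in all 18 pups, although their ranges over pups overlapped. *Sstr2* (13.6 ± 2.55 TPM) and *Npy1r* (13.5 ± 3.11 TPM) could not be ranked, since *Sstr2* was above *Npy1r* in 10 of 18 pups. A gap then separated these from the other 6 receptors: the lowest *Npy1r* value was 8.21 TPM and the highest *Npy2r* value 6.66 TPM.

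The weak receptors were *Npy2r* (2.70 ± 1.95 TPM), *Tacr1* (2.16 ± 1.37), *Npy5r* (2.11 ± 0.481), *Oxtr* (1.93 ± 1.03), *Vipr1* (1.63 ± 0.44) and *Avpr1a* (1.36 ± 0.495), all n = 18 with SD. Their order is not resolved, as each neighbour exceeded the next in only 7 to 12 of 18 pups. The gene models of *Npy2r*, *Oxtr*, *Tacr1* and *Vipr1* span 1147 to 1380 bases in 1 transcript each, against 3906 bases for *Sstr1*, and reads outside a model are not counted.

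**Figure D1:**
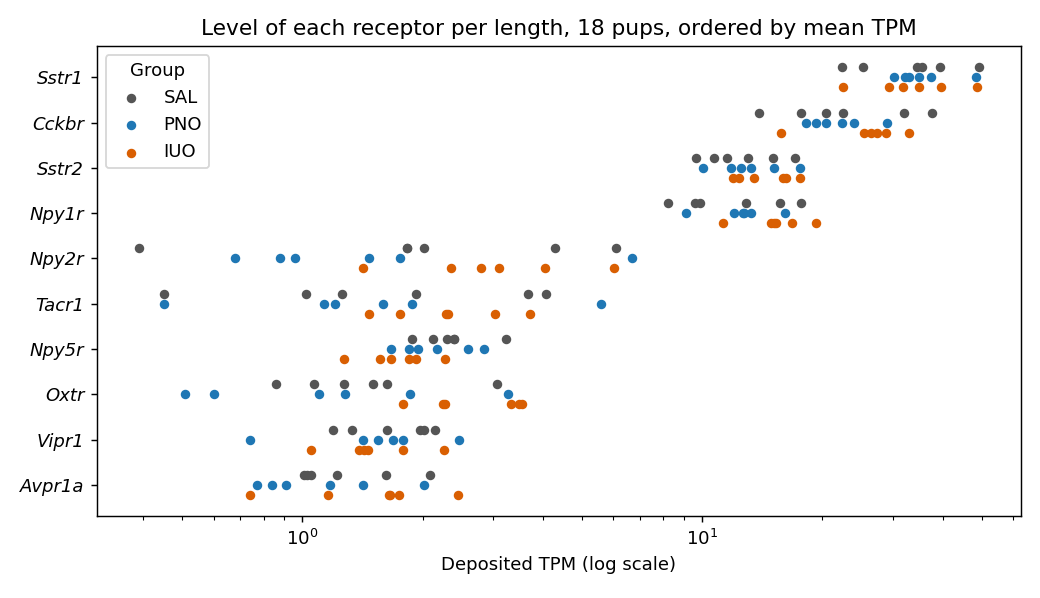
Deposited TPM on a log scale for each receptor, 1 point per pup, colored by group and ordered by mean TPM. *Sstr1*, *Cckbr*, *Sstr2* and *Npy1r* form an upper set with all pups at or above 8.21 TPM, and the other 6 receptors lie at or below 6.66 TPM.

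Spread over pups of the same group differed between receptors. The biological coefficient of variation, the spread beyond counting error that edgeR estimates, was 62.2% for *Npy2r*, 53.6% for *Tacr1* and 39.8% for *Oxtr*, and lay between 17.5% and 29.4% for the other 7. *Npy2r* differed 12.8-fold and *Tacr1* 9.22-fold between the lowest and the highest pup, against 1.89-fold for *Sstr2*. At the lowest counts, 7 for *Npy2r*, 7.55 for *Tacr1* and 8 for *Oxtr*, counting alone gives a 95% Poisson interval of 2.81 to 14.4, 3.16 to 15.2 and 3.45 to 15.8 counts (counting error only).

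Differences between groups were tested by edgeR's quasi-likelihood test with Benjamini-Hochberg adjustment over 15703 genes. None of the 10 receptors passed an adjusted p of 0.05 in any of the 3 comparisons, where 0%, 0% and 0.0637% of all genes did (PNO against SAL, IUO against SAL, IUO against PNO). At an unadjusted p under 0.05 the receptors counted 0 of 10, 2 of 10 and 2 of 10, beside 4.5%, 6.88% and 15.3% of all genes. These 2 were *Oxtr*, higher in IUO, and *Npy5r*, lower in IUO, in both comparisons. Leaving out each of the 18 pups in turn, *Oxtr* lost this threshold against SAL in 6 fits (IUO replicates 1, 3 and 5 and SAL replicates 2, 3 and 5) and against PNO in 0. *Npy5r* lost it against SAL in 1 fit (SAL replicate 2) and against PNO in 5 (IUO replicates 1, 5 and 6 and PNO replicates 5 and 6). PNO and IUO against SAL share the SAL pups, and both comparisons of IUO share the IUO pups, so the entries are not independent. Without the 4 pups with *Oxt* signal, the receptors with an unadjusted p under 0.05 numbered 0, 1 and 3 of 10, beside 4.61%, 5.12% and 14.0% of all genes, and 0 passed the adjusted threshold in each comparison. Median log2 fold changes of the 10 receptors were -0.03, 0.20 and 0.21, beside 0.0033, -0.0073 and -0.00053 over all genes.

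**Figure D2:**
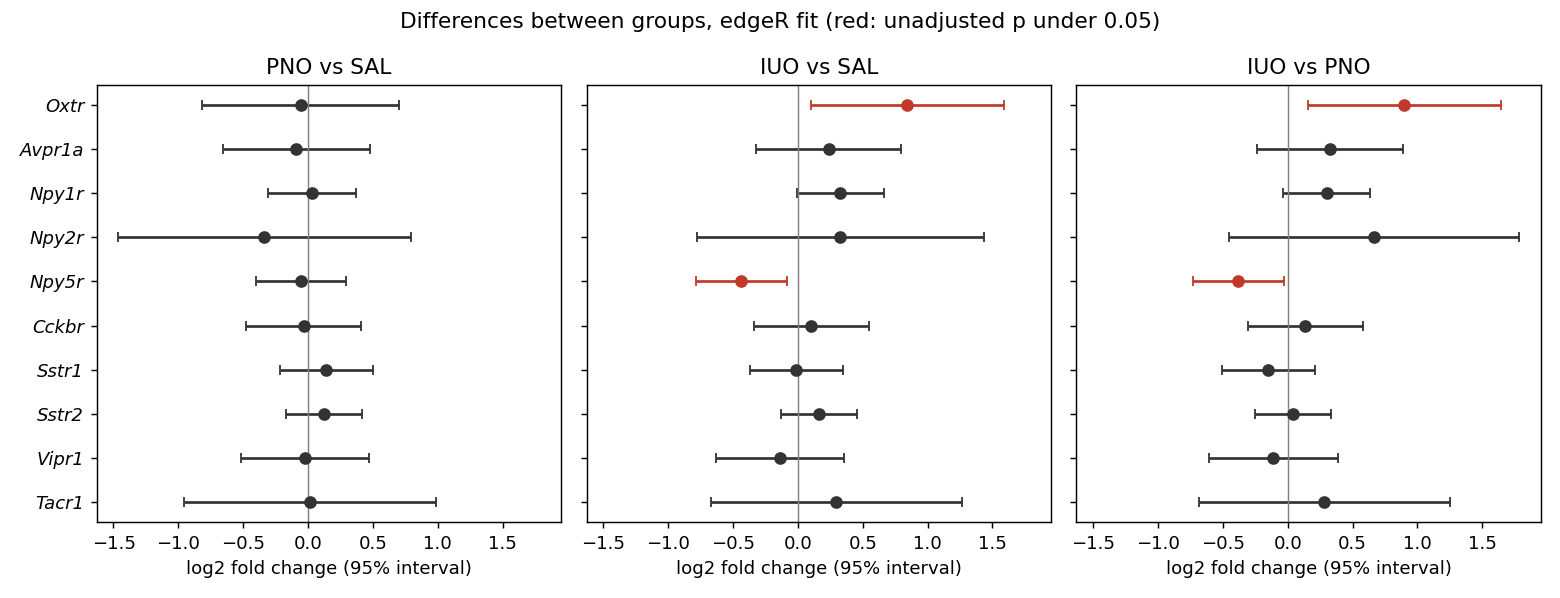
Log2 fold change of each receptor with its 95% interval in 3 comparisons, from the edgeR fit over 18 pups, with receptors at an unadjusted p under 0.05 in red. Between PNO and SAL all 10 intervals hold 0, and in both comparisons of IUO those of *Oxtr* (0.84 and 0.90) and *Npy5r* (-0.43 and -0.38) do not.

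*Oxtr*, the receptor through which oxytocin acts on social and maternal behavior, had few reads in each pup. Its counts for replicates 1 to 6 were 22, 18, 17, 31, 15 and 45 in SAL, 56, 8, 20, 10, 14 and 33 in PNO, and 48, 34, 62, 30, 58 and 38 in IUO. In TMM-normalized CPM, SAL pups ran from 0.629 through a median of 0.966 to 1.85, PNO pups from 0.422 through 0.897 to 2.11, and IUO pups from 1.25 through 1.98 to 2.57. All 6 IUO pups lay above the medians of both other groups, but the ranges overlapped, through the highest SAL and PNO pups.

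Mean *Oxtr* was 1.97 ± 0.517 CPM in IUO, 1.09 ± 0.457 in SAL and 1.04 ± 0.642 in PNO (SD, n = 6). IUO stood 1.8-fold above SAL (log2 0.84, SE 0.35, 95% interval 0.10 to 1.59, edgeR adjusted p = 0.673) and 1.87-fold above PNO (log2 0.90, SE 0.35, interval 0.16 to 1.65, edgeR adjusted p = 0.245). The exact permutation test on log2 CPM, two-sided over all divisions of the 12 pups, with a smallest possible p of 0.00216, gave p = 0.0152 against SAL and p = 0.026 against PNO. PNO and SAL differed by -0.06 on the log2 scale, with a 95% interval of 0.568-fold to 1.63-fold, so differences of that size were not resolved.

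The call for *Oxtr* depended on the method. limma-voom with sample quality weights gave 1.08 between IUO and PNO at an adjusted p of 0.0411, the lowest of 0.0411 to 0.529 over the planned and added fits, and in that fit 2028 genes were called in place of 10. Without the 4 pups that had over 100 *Oxt* counts, the difference was 1.21 (SE 0.40, edgeR adjusted p = 0.291) between IUO and PNO and 0.80 (SE 0.39, edgeR adjusted p = 0.976) between IUO and SAL, where the unadjusted p was no longer under 0.05. PNO then differed from SAL by -0.42. Leaving out PNO replicate 1 alone, the highest *Oxtr* pup of its group and 1 of those 4, moved the difference from PNO to 1.23. With a score of the myelin markers as a covariate, *Oxtr* in IUO differed by 0.88 from SAL and by 1.02 from PNO. With the striatal markers, which were higher in IUO too, it differed by 0.82 from SAL, where the unadjusted p was no longer under 0.05, and by 0.88 from PNO.

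*Avpr1a*, the main vasopressin receptor of the forebrain, did not separate the groups. Its mean was 1.5 ± 0.423 CPM in SAL, 1.41 ± 0.46 in PNO and 1.77 ± 0.601 in IUO (SD, n = 6), with counts from 15 to 65 over all pups. The log2 difference of PNO from SAL was -0.09, that of IUO from SAL 0.24 and that of IUO from PNO 0.33, with exact permutation p of 0.652, 0.498 and 0.318. With 1 pup left out, the difference of IUO from SAL ran from 0.0948 (without IUO replicate 5) to 0.39 (without SAL replicate 1) and that from PNO from 0.18 (without IUO replicate 5) to 0.46 (without PNO replicate 1). All 4 pups with over 100 *Oxt* counts had at least 1.93 CPM, and the other 14 had a median of 1.36 with a range of 0.799 to 2.56. Whether hypothalamic tissue in the samples bears on the *Avpr1a* values was not tested.

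**Figure D3:**
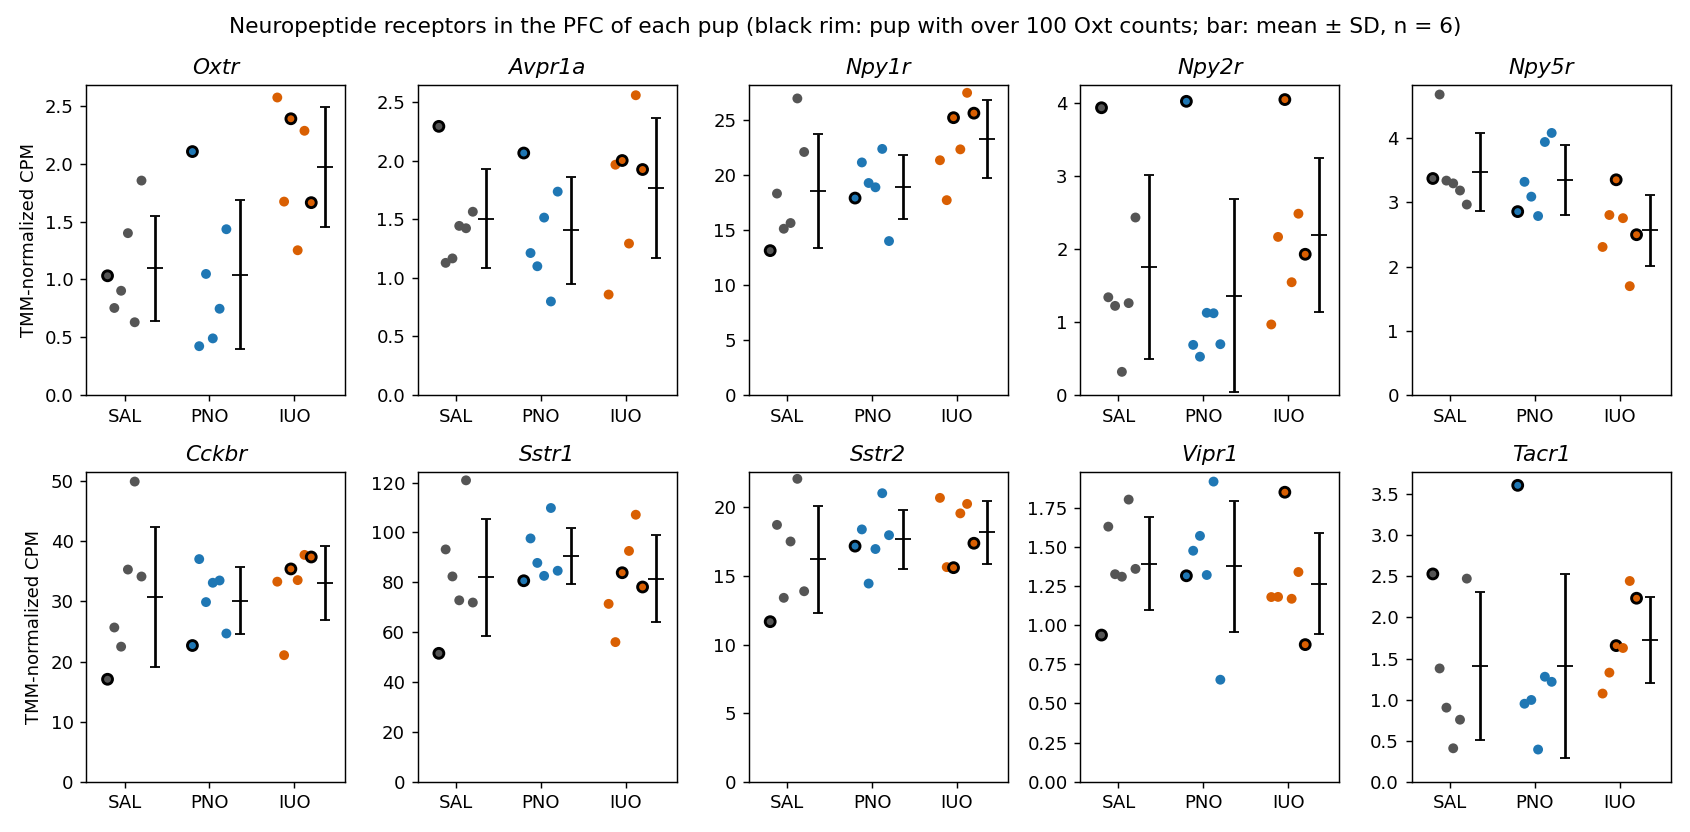
TMM-normalized CPM of the 10 receptors in each pup by group, with the mean ± SD (n = 6) beside the points and a black rim on the 4 pups with over 100 *Oxt* counts. *Oxtr* points of IUO lie between 1.25 and 2.57 CPM and *Npy5r* points of IUO between 1.69 and 3.35, and the 3 highest *Npy2r* points all have a rim.

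Receptors for neuropeptide Y, a peptide that inhibits cortical excitation, had differences of opposite sign. For *Npy5r*, which also serves feeding, values in IUO tended to be lower. SAL pups ran from 2.97 through a median of 3.32 to 4.68 CPM, PNO pups from 2.79 through 3.21 to 4.08, and IUO pups from 1.69 through 2.63 to 3.35. In IUO 5 of 6 pups lay below the medians of SAL and of PNO, and the ranges overlapped. The SAL maximum was replicate 2, with 3.37 in the next pup. The log2 difference was -0.43 from SAL (SE 0.17, 95% interval -0.78 to -0.09, edgeR adjusted p = 0.602, exact permutation p = 0.0108), which is 1.35-fold lower, and -0.33 without SAL replicate 2. From PNO it was -0.38 (SE 0.17, interval -0.73 to -0.03, edgeR adjusted p = 0.292, exact permutation p = 0.0325), which is 1.3-fold lower. In 4 of 11 other fits (limma-voom, no library size normalization, the myelin and the striatal score as a covariate) the unadjusted p was no longer under 0.05. The differences in these fits were -0.31, -0.34, -0.37 and -0.33. On a TPM scale, log2(TPM + 0.1), the difference from PNO was -0.29 with an exact permutation p of 0.0996. Without the 4 pups with *Oxt* signal the differences were -0.55 from SAL (edgeR adjusted p = 0.887) and -0.53 from PNO (edgeR adjusted p = 0.31).

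*Npy1r*, the neighbour of *Npy5r* on chromosome 16 and the most abundant of the 3 in PFC, had higher values in IUO that passed neither threshold in the fit over all pups. SAL pups ran from 13.1 through 17 to 27 CPM, PNO pups from 14 through 19.1 to 22.4, and IUO pups from 17.7 through 23.8 to 27.5. All 6 IUO pups were above the SAL median and 5 of 6 above the PNO median. Log2 differences of IUO were 0.33 from SAL (SE 0.16, 95% interval -0.01 to 0.67, edgeR adjusted p = 0.748) and 0.30 from PNO (SE 0.16, interval -0.04 to 0.64, edgeR adjusted p = 0.385). An unadjusted p under 0.05 was reached against SAL in 3 of 11 other fits and in 4 of 18 fits that left out 1 pup, and against PNO in 4 of 11 and 2 of 18, and none of these passed the adjusted threshold. With a score of the myelin markers as a covariate the difference from PNO was -0.02, with a score of the striatal markers it was 0.42, and without the 4 pups with *Oxt* signal it was 0.21, with 0.17 from SAL.

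*Npy2r*, often a presynaptic receptor that limits transmitter release, had its highest levels in a few pups. Its counts for replicates 1 to 6 were 84, 32, 23, 7, 30 and 59 in SAL, 107, 13, 10, 23, 21 and 16 in PNO, and 18, 44, 105, 37, 63 and 44 in IUO. The 3 highest levels, 3.94 CPM in SAL replicate 1, 4.02 in PNO replicate 1 and 4.05 in IUO replicate 3, belong to pups with over 100 *Oxt* counts, and the other 14 pups had 0.316 to 2.48 CPM with a median of 1.17. The fourth such pup, IUO replicate 6, had 1.93 CPM.

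With all pups, *Npy2r* in IUO differed by 0.67 from PNO (SE 0.53, 95% interval -0.46 to 1.79, exact permutation p = 0.104) and by 0.33 from SAL (SE 0.53, exact permutation p = 0.385). The difference from SAL was 0.0585 without IUO replicate 3 and 0.73 without SAL replicate 1. The difference from PNO was 0.40 without IUO replicate 3. It was 1.39 without PNO replicate 1 (edgeR adjusted p = 0.142) and 1.07 with limma-voom (adjusted p = 0.116), both with an unadjusted p under 0.05. Without PNO replicate 1 the difference of PNO from SAL went from -0.34 to -1.07, also with an unadjusted p under 0.05 (edgeR adjusted p = 0.536). With the replicate number as a block IUO differed from SAL by 0.62. Without all 4 pups IUO was 1.10 above PNO (SE 0.45, unadjusted p under 0.05, edgeR adjusted p = 0.325) and 0.44 above SAL, and PNO differed from SAL by -0.67.

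**Figure D4:**
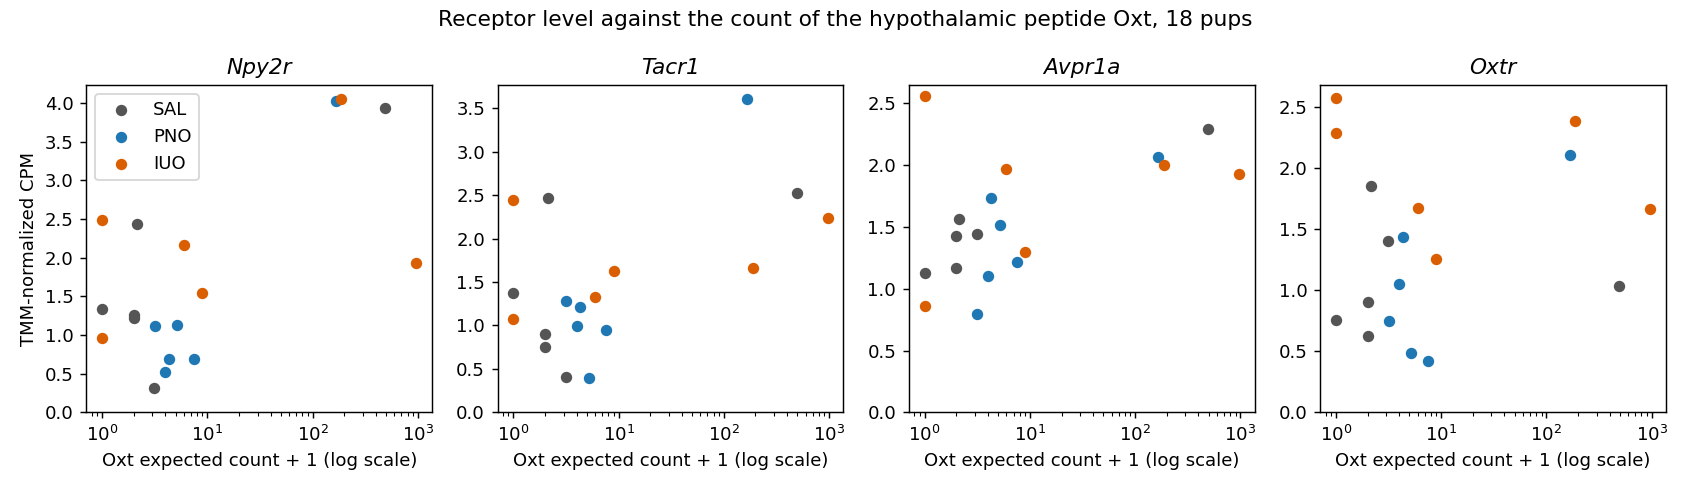
CPM of *Npy2r*, *Tacr1*, *Avpr1a* and *Oxtr* against the expected count of *Oxt* plus 1 on a log scale, 1 point per pup, colored by group. The 4 pups at the right, 1 of SAL, 1 of PNO and 2 of IUO, include the 3 highest *Npy2r* pups, while *Oxtr* has pups of 2.57 and 2.29 CPM at the left. Median *Oxtr* is 1.885 CPM in the 4 pups and 1.15 in the other 14.

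*Cckbr*, the main cholecystokinin receptor of the cortex, had 30.8 ± 11.7 CPM in SAL, 30.2 ± 5.55 in PNO and 33.1 ± 6.18 in IUO (SD, n = 6). SAL pups covered 17.1 to 50 CPM, a range that held all pups of the other groups, and IUO replicate 2, at 21.1, lay apart from the other IUO pups, at 33.3 or more. PNO differed from SAL by -0.03 on the log2 scale, IUO from SAL by 0.10 and IUO from PNO by 0.14, and the widest of the 95% intervals, -0.47 to 0.41, was that of PNO against SAL. Leaving out 1 pup, the difference of IUO from PNO ran from 0.0575 (without PNO replicate 1) to 0.23 (without IUO replicate 2) and that from SAL from -0.0277 (without SAL replicate 1) to 0.30 (without SAL replicate 5). IUO differed by -0.0994 from SAL and by -0.0144 from PNO without the 4 pups with *Oxt* signal.

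*Sstr1* and *Sstr2*, inhibitory somatostatin receptors, had similar means in the 3 groups. *Sstr1* had 82.1 ± 23.5 CPM in SAL, 90.5 ± 11.2 in PNO and 81.5 ± 17.6 in IUO. *Sstr2* had 16.2 ± 3.91, 17.7 ± 2.15 and 18.2 ± 2.29 CPM. The 95% intervals bounded *Sstr1* at 0.86-fold to 1.41-fold for PNO against SAL and 0.775-fold to 1.27-fold for IUO against SAL, and *Sstr2* at 0.889-fold to 1.33-fold and 0.916-fold to 1.37-fold. Differences of that size or less were therefore not resolved. *Sstr1* in IUO differed from SAL by -0.0105 with all pups and by -0.12 without the 4 pups with *Oxt* signal.

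*Vipr1*, a receptor for vasoactive intestinal peptide, had 15 to 48 counts per pup and means of 1.39 ± 0.298 CPM in SAL, 1.38 ± 0.418 in PNO and 1.27 ± 0.323 in IUO. The lowest pup, PNO replicate 6 at 0.652 CPM, lay apart from the next of its group at 1.32. Log2 differences were -0.03, -0.14 and -0.11 (PNO against SAL, IUO against SAL, IUO against PNO), with exact permutation p of 0.823, 0.452 and 0.74. They were -0.11, -0.29 and -0.19 without the 4 pups with *Oxt* signal. With 1 pup left out, IUO against SAL ran from -0.28 (without IUO replicate 3) to -0.0500 (without SAL replicate 5) and IUO against PNO from -0.26 (without PNO replicate 6) to -0.0046 (without PNO replicate 5).

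*Tacr1*, which binds substance P, had 7.55 to 96 counts per pup, with means of 1.41 ± 0.903 CPM in SAL, 1.41 ± 1.12 in PNO and 1.73 ± 0.524 in IUO. The lowest, median and highest pups were 0.407, 1.14 and 2.53 CPM in SAL, 0.391, 1.11 and 3.61 in PNO, and 1.07, 1.64 and 2.44 in IUO. Log2 differences of IUO were 0.30 from SAL (SE 0.46, exact permutation p = 0.294) and 0.28 from PNO (SE 0.46, exact permutation p = 0.268). The PNO maximum was replicate 1, and without it the difference of PNO from SAL went from 0.01 to -0.54 and that of IUO from PNO to 0.83, while leaving out PNO replicate 4 took the latter to 0.0911. With 1 pup left out the difference of IUO from SAL ran from 0.11 without SAL replicate 4 to 0.53 without SAL replicate 1. Without all 4 pups with *Oxt* signal PNO differed from SAL by -0.30 and IUO by 0.74 from PNO and 0.44 from SAL. The difference of IUO from PNO was 0.96 with limma-voom, where its unadjusted p was under 0.05 (adjusted p = 0.093), 0.60 with the replicate block and 0.0512 with the myelin score, and that from SAL was 0.53 with limma-voom and 0.56 with the block.

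How the receptors varied together over the 18 pups is given as a description of log2 CPM in pups that share 1 sequencing run. Among *Npy1r*, *Cckbr*, *Sstr1* and *Sstr2* Pearson r ran from 0.56 (*Npy1r* and *Sstr2*) to 0.81 (*Npy1r* and *Cckbr*). *Vipr1* was closer to some of these than to others, with 0.51 for *Sstr1*, 0.48 for *Npy1r*, 0.42 for *Cckbr* and 0.23 for *Sstr2*. The mean log2 CPM of the excitatory neuron markers had r of 0.79 with *Npy1r*, 0.81 with *Cckbr*, 0.81 with *Sstr1*, 0.66 with *Sstr2* and 0.67 with *Vipr1*, and -0.46 with *Avpr1a*, -0.27 with *Tacr1*, -0.26 with *Npy5r*, -0.23 with *Npy2r* and -0.17 with *Oxtr*. Without the 4 pups with *Oxt* signal the r of *Npy2r* and *Tacr1* turned to 0.25 and 0.14, and that of *Avpr1a* was -0.25. In whole tissue, fewer cells of a type and less RNA per cell cannot be told apart.

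Among *Npy2r*, *Tacr1*, *Avpr1a* and *Oxtr* r ran from 0.41 (*Oxtr* and *Avpr1a*) to 0.78 (*Npy2r* and *Tacr1*). Without the 4 pups with *Oxt* signal it ran from 0.23 (*Avpr1a* and *Tacr1*) to 0.70 (*Npy2r* and *Tacr1*). *Npy5r* had r of -0.49 with *Oxtr*, the lowest of the 45 pairs, and -0.48 with *Npy1r*, or -0.17 and -0.24 after group means were removed. Myelin markers, whose median was lowest in IUO, had r of -0.66 with *Npy1r*, -0.39 with *Npy2r*, -0.34 with *Tacr1*, -0.28 with *Oxtr* and 0.33 with *Npy5r*, and -0.46 with *Cckbr*, -0.16 with *Avpr1a*, -0.15 with *Sstr1*, -0.15 with *Sstr2* and -0.16 with *Vipr1*. In the other 14 pups these were -0.72, -0.73, -0.70, -0.36 and 0.43, and -0.41, -0.24, -0.22, -0.28 and -0.23. Over the 18 pups, striatal markers had r of 0.32 with *Oxtr*, 0.30 with *Npy2r*, 0.26 with *Tacr1* and 0.12 with *Avpr1a*. They had -0.16 with *Npy1r* and *Vipr1*, -0.35 with *Npy5r*, -0.37 with *Sstr2*, and -0.46 with *Cckbr* and *Sstr1*. Interneuron markers ran from -0.53 with *Cckbr* and -0.51 with *Npy1r* to 0.33 with *Npy5r*.

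**Figure D5:**
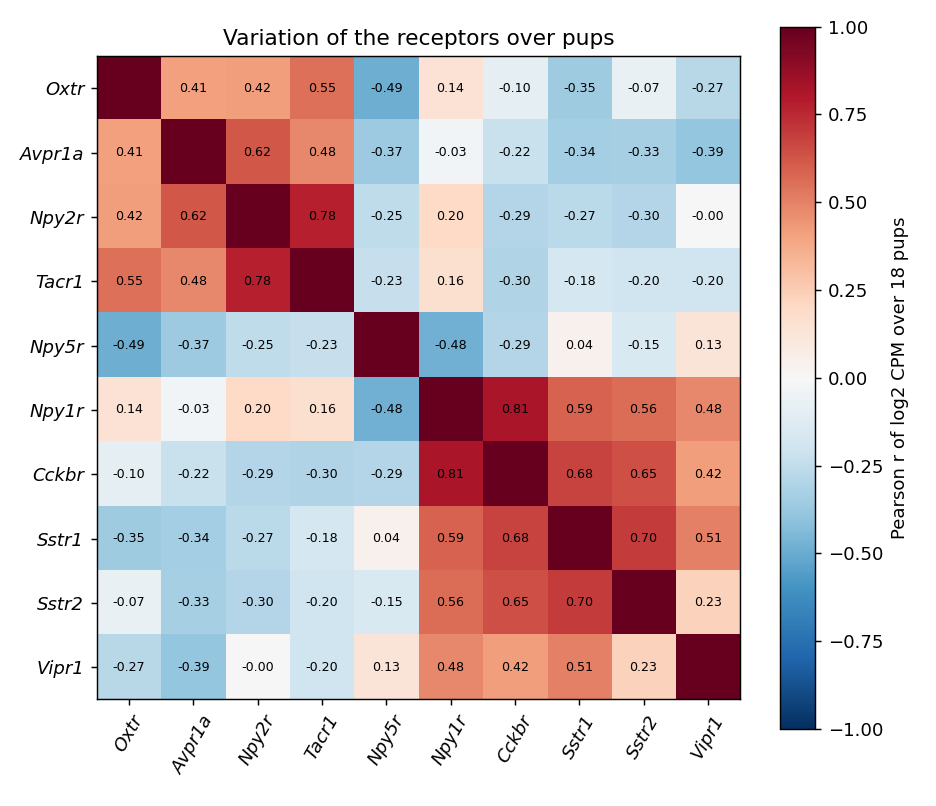
Pearson r of log2 CPM over 18 pups for all 45 pairs of receptors, from -1 (blue) to 1 (red). Pairs among *Npy1r*, *Cckbr*, *Sstr1*, *Sstr2* and *Vipr1* lie between 0.23 and 0.81, and pairs among *Oxtr*, *Avpr1a*, *Npy2r* and *Tacr1* between 0.41 and 0.78.

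Among 14368 other genes with a mean of at least 1 CPM, those most like *Oxtr* over the 18 pups were *Ikzf1* (r = 0.83), *Srebf1* (r = 0.83) and *Spef2* (r = 0.79). Genes among those most like *Npy2r* were *Erich3* (r = 0.89) and *Lmo7* (r = 0.86).

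The ligands of these receptors were measured in the same pups. Of 14 ligand genes, 13 were listed and 8 tested, and none had an unadjusted p under 0.05 in any comparison. *Sst*, the somatostatin precursor, was the most abundant, with 519 ± 92.8 TPM (SD, n = 18), followed by *Cck* with 360 ± 132 TPM, *Tac1*, which encodes substance P, with 80.7 ± 35.5 TPM and *Vip* with 34.0 ± 8.99 TPM. *Sst* averaged 163 ± 18.4 CPM in IUO, 172 ± 57.1 in SAL and 207 ± 48.1 in PNO (edgeR adjusted p = 0.419 between IUO and PNO). *Vip* alone of the ligands reached an unadjusted p under 0.05 without the 4 pups with *Oxt* signal, with -0.46 between IUO and PNO (edgeR adjusted p = 0.350) against -0.31 in all pups. That is 1 of 8 ligand genes, beside 14.0% of all genes in that fit. *Oxt* stayed below the filter. *Avp* differed by 2.27 between IUO and PNO with an SE of 1.36 (edgeR adjusted p = 0.437), and this turned to -0.998 (SE 0.71, edgeR adjusted p = 0.487) without these pups, which had its highest counts.

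Other receptors of the same families gave 8 tested genes of 12. *Adcyap1r1*, which binds a peptide related to vasoactive intestinal peptide, was highest with 51.3 ± 13.4 TPM. At an unadjusted p under 0.05, *Sstr3* was lower in IUO than in PNO (-0.41, SE 0.18, edgeR adjusted p = 0.303), *Avpr2* higher (0.75, SE 0.30, edgeR adjusted p = 0.249), and *Vipr2* lower in PNO than in SAL (-0.46, SE 0.22, edgeR adjusted p = 0.912). None of the 8 passed the adjusted threshold. At the unadjusted one, 15.3% of all genes were found for IUO against PNO and 4.5% for PNO against SAL. In the 14 pups with under 100 *Oxt* counts these differences were -0.53, 0.74 and -0.50, of which *Sstr3* alone kept an unadjusted p under 0.05. *Sstr3* (-0.40) and *Vipr2* (-0.61) then reached it for IUO against SAL. In that fit 14.0% of all genes did so for IUO against PNO and 5.12% for IUO against SAL.

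Enzymes and chaperones that mature peptides were next. *Pam*, which adds the terminal amide that oxytocin, vasopressin, neuropeptide Y and substance P need, was 192 ± 13.7 CPM in IUO, 248 ± 22.2 in PNO and 224 ± 27 in SAL (SD, n = 6). IUO pups, at 176 to 209 CPM, lay below every PNO pup, at 220 to 280. The log2 difference was -0.37 from PNO (SE 0.08, edgeR adjusted p = 0.0732) and -0.22 from SAL (SE 0.08, edgeR adjusted p = 0.575). *Scg5*, a chaperone of a prohormone convertase, was -0.46 from PNO (SE 0.15, edgeR adjusted p = 0.168). The differences from PNO without the 4 pups with *Oxt* signal were -0.42 for *Pam* (edgeR adjusted p = 0.193) and -0.51 for *Scg5*. *Pcsk1*, *Pcsk2*, *Pcsk1n* and *Cpe* had unadjusted p of 0.0569 or more in all comparisons. Of the 6 genes, 2 had an unadjusted p under 0.05 for IUO against PNO and 1 for IUO against SAL, beside 15.3% and 6.88% of all genes.

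Of 9 peptidases that degrade neuropeptides, none had an unadjusted p under 0.05, and *Thop1* with 43.6 ± 5.55 TPM and *Prep* with 43.0 ± 7.78 TPM (SD, n = 18) were the most abundant and were not ranked. Of 16 entries for G proteins, cyclases, phospholipases and potassium channels downstream, *Gnai2*, an inhibitory G protein subunit, was the single entry at an unadjusted p under 0.05, with 0.17 more on the log2 scale in IUO than in PNO (SE 0.06, edgeR adjusted p = 0.222), where 15.3% of all genes were at that threshold, or 0.15 and no longer under 0.05 without the 4 pups with *Oxt* signal. *Adcy5*, a cyclase abundant in striatum, then had an unadjusted p under 0.05 in IUO against both other groups (0.77 from SAL and 0.88 from PNO), and *Plcb4*, a phospholipase, against SAL (-0.25), which is 2 of 16 entries against SAL and 1 of 16 against PNO beside 5.12% and 14.0% of all genes in that fit. The members of these 5 lists that passed an adjusted p of 0.05 numbered 0 in each comparison.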

How the data were processed

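RNA-seq of the PFC gave 1 table per pup, and samples were grouped and numbered by their titles. The authors deposited an expected count for each gene (reads matching several genes are shared out), not normalized, beside TPM and FPKM values that the authors scaled to gene length and depth, with the gene model length. FPKM was not used. Libraries were 75-base single reads from a kit that does not mark strand. The aligner, quantifier, build and annotation are not given in the sources used here.

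After rounding of the expected counts, edgeR 4.0.16 under R 4.3.3 was applied to all 18 pups in 1 model of 3 groups, with TMM factors, filterByExpr by group and the quasi-likelihood functions glmQLFit and glmQLFTest (15 residual degrees of freedom, two-sided). P-values were adjusted by Benjamini-Hochberg, and the threshold for a call was an adjusted p under 0.05 with no fold limit. CPM are TMM-normalized. Their log2 values have a prior count of 2. Depth was 18381819 to 26084780 counts per pup. All 45 pairs of pups of 1 group differed beyond sampling noise (chi-square per degree of freedom of at least 11.2), so no pair was a repeat run of 1 library. Each pup was taken as 1 replicate. Littermates would differ in this way too, so the check cannot show that pups are independent. The code was tested on simulated data with 200 changed genes. Alternatives were DESeq2 1.42.0 (size factors or its test), limma-voom (limma 3.58.1), other filters, 12 pups, a replicate block, marker scores as covariates, exact permutation tests (scipy 1.17.1) and each pup left out. The set without the 4 pups with over 100 *Oxt* counts was added after the data were seen.

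The receptors and lists were chosen with earlier results of these data known. The text names all 10 receptors, other list genes at an unadjusted p under 0.05 or with the highest level of a list, and the 3 genes most like *Oxtr* and *Npy2r*, of which 1 is not reported here. Promoter windows and their coordinates come from RefSeq on GRCr8. Tables and plots used Python 3.11.15, numpy 2.4.6, pandas 2.3.3 and matplotlib 3.10.9.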

Additional observations from a re-analysis of the deposited data

Results flagged for a closer look

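In each group of 6 pups, the pup at either end was compared with its nearest neighbour, and its gap on the log2 CPM scale was divided by the range of the group. In 4 of 30 groups checked this exceeded 0.625, where chance gives about 1 in 20 groups. *Npy2r* in PNO replicate 1 was 4.02 CPM beside 1.12 in the nearest pup (gap over range 0.641), and this pup also had 165 *Oxt* counts. *Npy5r* in SAL replicate 2 was 4.68 CPM beside 3.37 (0.72). *Cckbr* in IUO replicate 2 was low, at 21.1 CPM beside 33.3 (0.785), and *Vipr1* in PNO replicate 6 was low, at 0.652 CPM from 15 counts beside 1.32 (0.642). The cause was not tested.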

How the results depend on the processing

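No receptor was called in any of 3 comparisons under any alternative, except *Oxtr* between IUO and PNO with limma-voom (1 receptor called), and leaving out each pup gave 0 to 0 receptors called. The 10 genes called between IUO and PNO became 19 without library size normalization, 436 with DESeq2, 2028 with limma-voom, 72 in 12 pups alone, 6 with the replicate block, 1 with the striatal and 2 with the myelin score, 0 without the 4 pups with *Oxt* signal (edgeR, smallest adjusted p 0.0572) and 1 to 95 with 1 pup left out. Against SAL, the 0 called for IUO became 49 with DESeq2, 43 with limma-voom and 0 to 1 with 1 pup left out, and the 0 called for PNO became 1 with DESeq2. The cause was not tested. Of 930 alternative values of the receptor differences, 870 kept their direction and side of the threshold. Of these, 508 came from leaving out 1 pup. No receptor had passed the adjusted threshold in the main fit, so staying on its side says little about the differences. *Npy5r* between IUO and PNO lost its exact permutation p under 0.05 on the TPM scale (-0.29, p = 0.0996). Differences that reversed had a size of 0.34 or less on the log2 scale.

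Between PNO and SAL, limma-voom gave 0.0200 for *Avpr1a*, 0.20 for *Cckbr* and -0.43 for *Tacr1*. No library size normalization gave -0.0158 for *Npy1r* and -0.0342 for *Tacr1*, and the myelin score 0.15 for *Cckbr* and 0.0707 for *Vipr1*. Exact permutation gave 0.0352 for *Cckbr* and -0.0321 for *Tacr1* on log2 CPM and -0.11 for *Tacr1* on TPM, and leaving out the 4 pups -0.0395 for *Npy1r* and -0.30 for *Tacr1*. Between IUO and SAL, *Sstr1* was 0.0461 with limma-voom, 0.10 with the striatal score and 0.00885 and 0.013 by permutation on log2 CPM and TPM, and *Cckbr* was -0.0488 with the myelin score and -0.0994 without the 4 pups. Between IUO and PNO, limma-voom gave 0.0291 for *Vipr1*, the myelin score -0.0245 for *Npy1r*, -0.195 for *Cckbr* and -0.0268 for *Sstr2*, and leaving out the 4 pups -0.0144 for *Cckbr*.

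Other differences that kept their sign but moved by over 1.5 times and at least 0.1 were, with limma-voom, *Cckbr* (0.35), *Npy2r* (0.50) and *Tacr1* (0.53) between IUO and SAL, *Avpr1a* (0.19), *Npy2r* (1.07) and *Tacr1* (0.96) between IUO and PNO, and *Npy2r* (-0.58), *Npy5r* (-0.17), *Oxtr* (-0.17) and *Vipr1* (-0.20) between PNO and SAL. With the myelin score these were *Npy1r* (0.18), *Sstr1* (-0.14) and *Vipr1* (-0.24) between IUO and SAL, *Sstr1* (-0.38), *Vipr1* (-0.31) and *Tacr1* (0.0512) between IUO and PNO, and *Npy1r* (0.21), *Sstr1* (0.25) and *Tacr1* (0.17) between PNO and SAL. With the striatal score they were *Cckbr* (0.31), *Npy2r* (0.20) and *Sstr2* (0.29, unadjusted p then under 0.05) between IUO and SAL and *Cckbr* (0.34), *Sstr1* (-0.0298) and *Sstr2* (0.17) between IUO and PNO.

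With 1 pup left out, differences of PNO from SAL ran from -0.40 to 0.16 for *Oxtr*, -0.23 to 0.0669 for *Avpr1a*, -0.0551 to 0.17 for *Npy1r*, -1.07 to 0.0673 for *Npy2r*, -0.12 to 0.0498 for *Npy5r*, -0.16 to 0.16 for *Cckbr*, -0.14 to 0.12 for *Vipr1* and -0.54 to 0.25 for *Tacr1*. Those of IUO from SAL ran from -0.0277 to 0.30 for *Cckbr* and -0.12 to 0.13 for *Sstr1*, and those of IUO from PNO from -0.0086 to 0.0893 for *Sstr2* and -0.25 to -0.0712 for *Sstr1*. *Npy1r* in IUO ran from 0.24 to 0.47 against SAL and 0.23 to 0.36 against PNO, and *Npy5r* from -0.53 to -0.33 and -0.47 to -0.29. Against SAL, *Sstr2* ran from 0.0786 to 0.27 for IUO and 0.0427 to 0.23 for PNO, and *Sstr1* from 0.0356 to 0.28 for PNO. *Oxtr* ran from 0.73 to 1.06 for IUO against SAL and 0.74 to 1.23 for IUO against PNO.

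Same-numbered pups did not deviate together throughout (correlations from -0.301 to 0.488), so the numbers were not taken as pairs. With the replicate block *Cckbr* (0.0279) and *Tacr1* (-0.0325) between PNO and SAL and *Sstr1* (0.0131) between IUO and SAL changed sign, *Oxtr* between PNO and SAL became -0.18, *Npy2r* and *Tacr1* between IUO and SAL 0.62 and 0.56 and *Tacr1* between IUO and PNO 0.60, and the receptors called stayed at 0. *Oxtr*, *Npy2r* and *Tacr1* rest on as few as 7 counts per pup, which limits what could be detected.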

Other observations

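*Npy*, the neuropeptide Y precursor, was listed at 0 in 7 of 18 pups and at up to 50.4 expected counts in the others, none of them a whole number, beside 1967 to 5767 counts for *Sst* in the same pups. Its level is therefore uncertain here, and the reason was not tested. *Lnpep*, a peptidase that cleaves oxytocin, was listed at 0 in 2 pups and reached 129 expected counts.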
